A study of Solanum lycopersicum with 9 samples.

Results

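The 4 WT peak lists of this tomato chromatin immunoprecipitation sequencing (ChIP-seq) series, for H3K9ac, H3K27me3, H3K9me2 and H3K27me1, were compared with each other. The members were all peaks of these lists on the 12 numbered chromosomes, 94145 of the 266074 peaks in the 9 lists of the series. The study set WT tomato (*Solanum lycopersicum*, cultivar M82) against *ddm1*, the *Slddm1a/Slddm1b* double mutant that lacks the chromatin remodeller DDM1. Only WT is described here: untreated M82 plants with intact DDM1 genes, 1 month old and grown in a chamber, of which the fourth leaf was taken. A whole leaf holds several cell types, so marks that share a stretch of DNA in these lists need not share it in 1 cell. There was 1 list per mark. The methods speak of replicate plants, and whether a list joined their reads was not given in the sources used here. Nothing here can therefore be set against the variation between plants, no test was possible, and the intervals given cover counting error only. The leaf origin could not be checked, since genes were not placed on this assembly here.

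H3K9ac, acetylation of lysine 9 of histone H3, is carried by the first nucleosomes of transcribed genes and is known as an active mark. H3K27me3 is set by the Polycomb repressive complexes on silent genes and marks facultative heterochromatin, which can be reopened in other cells or at other times. H3K9me2 and H3K27me1 mark constitutive heterochromatin, in plants largely transposons and repeats. H3K9me2 is tied there to non-CG DNA methylation in a loop known from Arabidopsis, whereas H3K27me1 is set in Arabidopsis by monomethyltransferases of the ATXR group during replication. In many plants with large chromosomes, genes lie mostly towards the chromosome ends and repeats around the centromeres.

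The lists differed widely in size. H3K9ac had 42622 peaks that covered 31.4 Mb, or 3.91% of the chromosome length, with a median length of 631 bp and a median fold enrichment over background of 4.27. H3K27me3 had 35712 peaks over 42.8 Mb (5.34%), with a median of 909 bp and a fold enrichment of 1.93. H3K9me2 had 9767 peaks over 10.9 Mb (1.36%), with a median of 973 bp and a fold enrichment of 2.12, and H3K27me1 had 6044 peaks over 1.29 Mb (0.161%), with a median of 190 bp and a fold enrichment of 2.82. H3K27me3 and H3K9me2 were listed as broad regions and H3K9ac and H3K27me1 as narrow peaks with a summit, and each mark had its own antibody. Peak numbers and covered lengths therefore do not say which mark was more abundant. The lowest recurring background implied by the peak values of the narrow lists was 6.97 reads per position for H3K9ac and 6.98 for H3K27me1. It held for 194 of 29701 H3K9ac and 1341 of 6041 H3K27me1 peaks with a solved value. It is thus a floor and not the background of most peaks. No such value was obtained here for the broad lists. A q-value of 0.01 or lower was reached by 98.4% of H3K9ac, 86.3% of H3K27me1, 80.9% of H3K27me3 and 34.8% of H3K9me2 peaks. Deposited q-values are means over the region in the broad lists, so these shares are not alike between broad and narrow lists. Between the broad lists, H3K9me2 was the closer to its threshold. A stretch without a peak is one where no peak was called, and weaker signal there is not seen.

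From the chromosome ends to the centres, the marks followed each other in the order H3K9ac, H3K27me3, H3K9me2 and H3K27me1. The distance of a peak from the nearer chromosome end, with 50% at the chromosome centre, had a median of 8.48% of the chromosome length for H3K9ac, 12.9% for H3K27me3, 28.5% for H3K9me2 and 29.6% for H3K27me1. In Mb, these medians were 5.61, 8.46, 19.0 and 19.9. H3K9ac lay outside H3K27me3, and H3K27me3 outside both constitutive marks, on 12 of 12 chromosomes. The median of H3K27me3 was more central than that of H3K9ac by 2.23 percentage points on chromosome 9 and by up to 7.15 on chromosome 2. H3K27me1 was more central than H3K9me2 on 8 chromosomes and less central on chromosomes 1, 2, 7 and 10, with differences from −3.01 (chromosome 2) to 3.21 (chromosome 11) percentage points. The constitutive marks thus had no fixed order between them.

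The active and facultative marks thinned out towards the centres at different rates. In the outermost 5% of the chromosomes there were 171 H3K9ac peaks per Mb, and in the innermost 5% there were 9.74, a ratio of 17.5. H3K27me3 had 93.9 and 16.5 peaks per Mb in the same places, a ratio of 5.68. H3K9ac peaks outnumbered H3K27me3 peaks in the outer classes, and the densities met at 15 to 20% from the end (48.6 peaks per Mb for both). Further in, H3K27me3 had more peaks per Mb. By covered length the crossing lay nearer to the end. H3K9ac covered 129 kb per Mb and H3K27me3 109 in the outermost class, but 93.8 and 104 at 5 to 10%. Of all peaks, 14.4% of H3K9ac and 23.8% of H3K27me3 lay in the central 50% of the chromosomes.

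**Figure D1:**
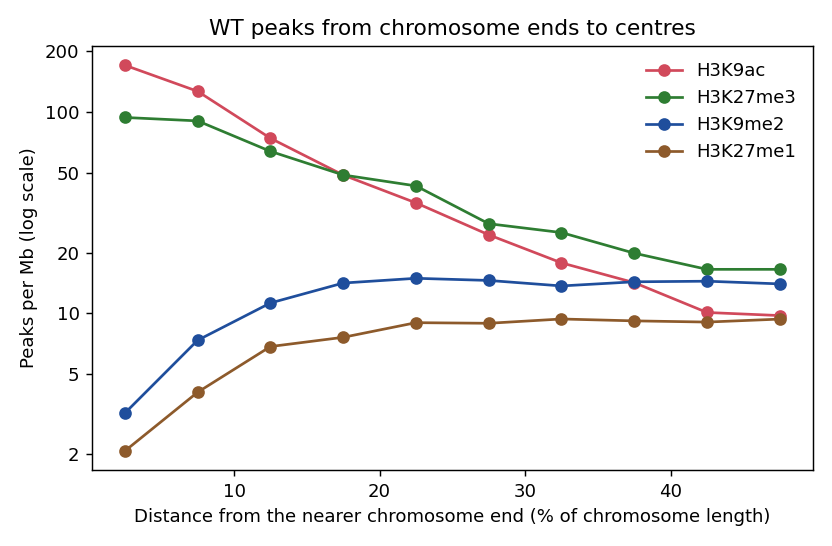
Peaks per Mb (log scale) in 10 classes of distance from the nearer chromosome end, each 5% of the chromosome length wide, for the 4 WT marks over 12 chromosomes. H3K9ac went from 171 to 9.74 and H3K27me3 from 93.9 to 16.5 peaks per Mb, while H3K9me2 and H3K27me1 stayed level from about 20% inwards.

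The constitutive marks had the opposite profile, with a plateau in place of a peak at the centre. H3K9me2 went from 3.19 peaks per Mb in the outermost class to 14.9 at 20 to 25% from the end and stood at 14.0 in the innermost class. H3K27me1 went from 2.07 to 8.98 and 9.35 peaks per Mb in these classes. Only the number of peaks followed the axis to this extent. The median fold enrichment of H3K9ac was 4.46 in the outermost and 4.68 in the innermost class, and that of H3K27me3 was 1.96 and 1.93. That of H3K9me2 was 2.33 in the outermost and 2.06 in the innermost class, so the few H3K9me2 peaks near the ends were not weaker than those inside.

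The first bases of the chromosomes departed from this order. Within 10 kb of the start of the assembled sequence, 11 of 12 chromosomes had an H3K9me2 peak and 8 an H3K27me1 peak, whereas 3 had an H3K9ac and 2 an H3K27me3 peak. The first peak of a chromosome was H3K9me2 on 8 chromosomes and H3K27me1 on 4. The median start of the first peak was 0.67 kb for H3K9me2, 1.38 kb for H3K27me1, 16.4 kb for H3K9ac and 21.2 kb for H3K27me3. In these 10 kb the density of H3K9me2 was 10.3 times and that of H3K27me1 19.9 times the density over all chromosomes, from 15 and 18 peaks. By 500 kb from the start, H3K9me2 stood at 0.547 and H3K27me1 at 0.796 times their overall density, and H3K9ac at 3.02 times. The far ends were not used for this count, because the end of a chromosome was taken from its last peak. The first 10 kb were chosen after the values were seen.

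Pairwise overlap divided the marks into 2 sets. H3K9ac overlapped H3K27me3, and H3K9me2 overlapped H3K27me1, whereas the 4 pairs across these sets were almost without shared bases. To allow for the uneven spread along the chromosomes, each list was also moved by fixed distances from 100 kb to 1 Mb in both directions, in 38 moves, and the mean share overlapped after these moves is called the locally moved share. In all, 82.7 Mb of the 802 Mb carried a peak of any mark, 95.6% of this length carried 1 mark alone, and 3.65 Mb (4.42%) carried 2 or more. H3K9ac with H3K27me3 made up 3440 kb of it in 8091 stretches with a median of 317 bp, and H3K9me2 with H3K27me1 made up 206 kb in 922 stretches with a median of 193 bp. A single stretch had 3 marks, the 172 bp on chromosome 3 from 60822258 to 60822429 with H3K9ac, H3K27me3 and H3K27me1. No stretch had all 4.

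Among constitutive marks, 922 of 6044 H3K27me1 peaks overlapped an H3K9me2 peak, which is 15.3% (95% Wilson interval 14.4 to 16.2). The locally moved share was 1.93%, between 1.42% and 2.45% over the moves, so the observed share was 7.91 times as high. Seen from the other list, 811 of 9767 H3K9me2 peaks (8.30%, 7.77 to 8.87) overlapped H3K27me1, 7.13 times the locally moved 1.16%. The ratio for H3K27me1 was above 1 on 12 of 12 chromosomes, from 6.78 on chromosome 9 to 10.5 on chromosome 6. Of the 922 overlapping pairs, the H3K27me1 peak lay entirely inside the H3K9me2 peak in 76.8%. With medians of 190 bp against 973 bp, a high value goes with the lengths alone, and it was not counted after moves. At a q-value of 0.01 or lower, which left 3400 H3K9me2 peaks, the share was 9.30% and the ratio 13.5. Even so, 84.7% of H3K27me1 peaks and 91.7% of H3K9me2 peaks were called without the other mark.

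For H3K27me3 and H3K9ac the overlap was more frequent but, over all peaks, close to that given by location. Of 35712 H3K27me3 peaks, 6833 (19.1%, 18.7 to 19.5) overlapped an H3K9ac peak, against a locally moved share of 16.8% (16.3 to 17.4 over the moves), a ratio of 1.14. Of 42622 H3K9ac peaks, 7946 (18.6%, 18.3 to 19.0) overlapped an H3K27me3 peak, against 16.2%, a ratio of 1.15. The ratio for H3K27me3 was above 1 on 10 chromosomes, up to 1.38 on chromosome 11, and below 1 on chromosome 2 (0.951) and chromosome 6 (0.970). The length shared by both lists was 1.04 times that after moving. When the lists were rotated along the whole chromosome, which removes the preference of both marks for the ends, the ratio for H3K27me3 was 2.29. It turned to 0.312 when each list was limited to its 6044 peaks of lowest q-value, and 1.72% of H3K27me3 peaks then overlapped H3K9ac, so the direction of this overlap depended on which peaks were counted.

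The strength of the peaks was therefore followed in both lists, with quartiles of the authors' fold enrichment within each list. H3K9ac peaks overlapped H3K27me3 in 23.9%, 24.96%, 17.2% and 8.60% of cases from the weakest to the strongest quartile, against locally moved shares of 13.1%, 14.8%, 17.3% and 19.4%. The ratios were 1.82, 1.69, 0.993 and 0.442, so weak H3K9ac peaks lay in H3K27me3 more often than their location gave, and strong ones less often. H3K27me3 showed the opposite trend: its peaks overlapped H3K9ac at 0.707, 1.07, 1.26 and 1.46 times the locally moved share from the weakest to the strongest quartile. With both lists divided at once, a split chosen after the values were seen, the highest ratio was that of the weakest H3K9ac quartile at the strongest H3K27me3 quartile (2.18, 904 of 10656 H3K9ac peaks). The lowest, 0.200 (91 of 10656 peaks), was that of the strongest H3K9ac at the weakest H3K27me3 peaks, and the strongest quartiles of both lists met at 0.601 times the locally moved share (383 of 10656 peaks). A low fold enrichment over part of a mixed leaf and a low one in every cell cannot be told apart in these lists.

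For H3K9me2 the ratio at H3K27me1 went the other way, with strong H3K9me2 peaks more often at H3K27me1. From the weakest to the strongest quartile of H3K9me2, 2.91%, 4.79%, 10.2% and 15.4% of the peaks overlapped H3K27me1, which was 2.46, 3.94, 8.37 and 14.7 times the locally moved share. Between 14.1% and 16.0% of each fold quartile of H3K27me1 overlapped H3K9me2, but this evenness hid opposite trends. From the weakest to the strongest H3K27me1 quartile, the ratio went from 5.61 over 1.88 and 0.971 to 1.14 for the weakest H3K9me2 peaks, and from 7.86 over 14.8 and 21.5 to 19.2 for the strongest. These ratios rest on few peaks, 44, 14, 7 and 8 of 2442 for the weakest and 49, 100, 134 and 130 of 2442 for the strongest. By length, the longest H3K27me1 quartile, with 21.0%, exceeded the shortest, with 11.8%.

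**Figure D2:**
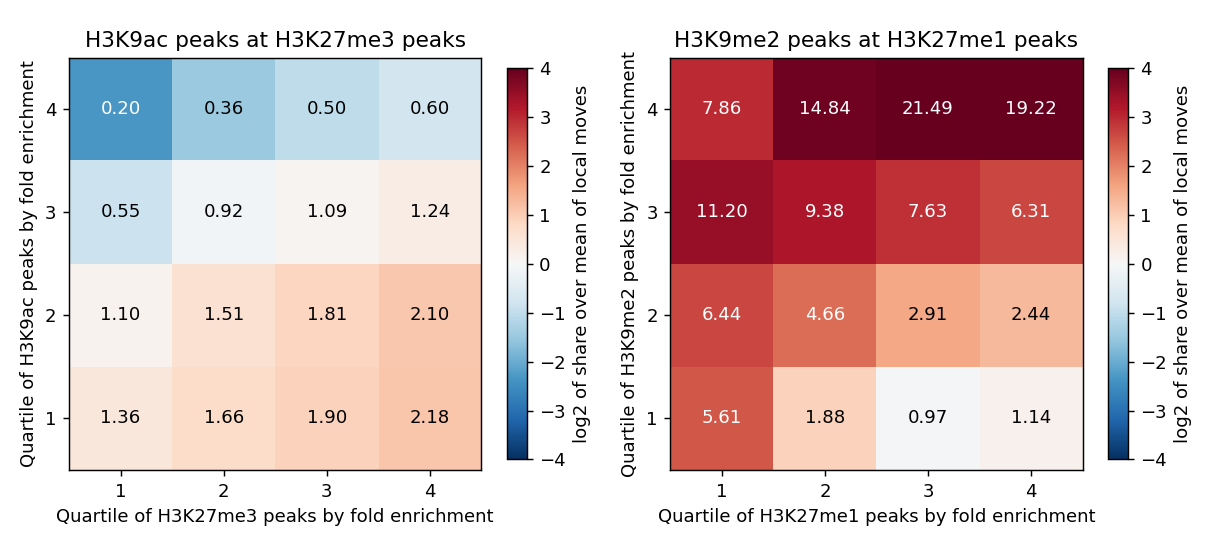
Share of H3K9ac peaks at H3K27me3 (left) and of H3K9me2 peaks at H3K27me1 (right), divided by the mean share after 38 local moves, for quartiles of fold enrichment in both lists (1 weakest, 4 strongest); numbers are the ratio and colours its log2. On the left the ratio runs from 0.200 (strong H3K9ac, weak H3K27me3) to 2.18 (weak H3K9ac, strong H3K27me3), and on the right the strongest H3K9me2 quartile reaches 21.5.

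Peaks that shared bases also differed in size from the others of their list. H3K27me3 peaks at H3K9ac had a median of 1273 bp and a fold enrichment of 2.09, against 829 bp and 1.90 for the 28879 H3K27me3 peaks without H3K9ac. H3K9ac peaks at H3K27me3 were shorter (494.5 against 661.5 bp) and weaker (3.36 against 4.72). Longer peaks meet other peaks more often by their length alone: the locally moved share of H3K27me3 peaks at H3K9ac was 10.9% in the shortest and 23.3% in the longest quartile, and the ratios were 1.05 and 1.13. In 39.7% of the 8091 overlapping pairs the H3K9ac peak lay inside the H3K27me3 peak, in 14.3% the H3K27me3 peak lay inside, and in 45.98% the peaks overlapped at an edge.

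Taken over peaks of all strengths, the overlap of H3K27me3 and H3K9ac was clearly above the locally moved share only in the interior of the chromosomes. These splits were added after the values were seen. Strength was not split by position, so a ratio near 1 towards the ends can be a net of weak H3K9ac peaks above it and strong ones below it. Within 25% of a chromosome end, 19.9% of 27217 H3K27me3 peaks (19.4 to 20.3) overlapped H3K9ac, against 20.03% after moves, a ratio of 0.991. In the central 50% it was 16.8% of 8495 peaks (16.0 to 17.6), against 6.30%, a ratio of 2.67. For H3K9ac peaks at H3K27me3 the ratios were 1.01 (17.4% of 36500 peaks) and 2.63 (26.3% of 6122 peaks). Both marks were sparse in the central 50%. Where peaks of either were called there, they shared bases more often than after moves of 100 kb to 1 Mb. Shorter moves were made over all peaks only, where 20.2% of H3K9ac peaks overlapped H3K27me3 after 2 kb, against 18.6% in place. Whether the excess in the central 50% lay in shared bases or in peaks close to each other was therefore not tested. In the 408 windows of 1 Mb with at most 15 H3K9ac peaks, 32.7% of H3K9ac peaks were at H3K27me3 and 15.0% of H3K27me3 peaks at H3K9ac, 9.89 and 8.77 times the locally moved shares of 3.30% and 1.71%. In the 388 other windows the shares were 17.8% and 19.6%, and the ratios 1.05 and 1.03. These windows were split by the H3K9ac list itself, so the moved shares there depend on the split.

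The longest stretches under both H3K27me3 and H3K9ac were on chromosome 3 from 1379748 to 1382448 (2701 bp), on chromosome 5 from 887259 to 889955 and on chromosome 9 from 196172 to 198868 (2697 bp each), all in the M82 V1.0 assembly that the files use and all within the outermost parts of their chromosomes. In the first and second of these, the H3K27me3 peak lay whole within a longer H3K9ac peak. The longest stretch under H3K9me2 and H3K27me1 was on chromosome 7 from 31502505 to 31504864 (2360 bp), a H3K27me1 peak with a fold enrichment of 3.77 inside a H3K9me2 peak. The next lay at the start of chromosome 2, from 1888 to 4111 (2224 bp) and from 7414 to 9164 (1751 bp), under the longest H3K27me1 peaks of all (2964 and 3012 bp), which were weak, with fold enrichments of 1.49 and 1.48.

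Between the sets, overlap was far below that given by location. No H3K9me2 peak of 9767 overlapped an H3K9ac peak, which allows a share of up to 0.0307% if 3 peaks are taken as the limit for a count of 0 (the Wilson upper bound is 0.0393%), against a locally moved share of 4.35%. With H3K27me3, 18 H3K9me2 peaks overlapped (0.184%, 0.117 to 0.291), against 7.03%, a ratio of 0.0262. For H3K27me1, 9 of 6044 peaks overlapped H3K27me3 (0.149%, 0.0784 to 0.283), against 4.19%, and 4 overlapped H3K9ac (0.0662%, 0.0257 to 0.170), against 2.16%. The ratio of each of these 4 pairs was below 1 on 12 of 12 chromosomes, and its highest value on any chromosome was 0.111, for H3K27me1 at H3K9ac on chromosome 6. The largest of these shared stretches was 919 bp of H3K27me3 and H3K9me2 on chromosome 1, from 59286452 to 59287370.

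The separation reached a few kb beyond the peaks. When H3K27me3 peaks were moved by set distances, the share of H3K9me2 peaks they overlapped was 1.16% at 1 kb, 3.66% at 2 kb and 6.77% at 3 kb. It then passed the locally moved 7.03%, with 9.91% at 5 kb and 9.95% at 6 kb, and was 8.36% at 10 kb. The highest share in any of the 38 local moves was 7.44%, so H3K27me3 lay 4 to 8 kb from H3K9me2 more often than at any of the longer distances tried, by 1.41 times at 5 kb. H3K27me1 had the same kind of shoulder next to H3K27me3, with 6.04% at 4 kb against a locally moved 4.19% and a maximum of 4.75%. At a q-value of 0.01 or lower the ratios at 5 kb were 1.54 for H3K9me2 and 1.40 for H3K27me1.

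Next to H3K9ac no such shoulder was seen. H3K9me2 reached 1.05 times and H3K27me1 0.924 times the locally moved share at 5 kb from H3K9ac, both within the range of the moves (0.911 to 1.12 and 0.836 to 1.14). At a q-value of 0.01 or lower the value for H3K9me2 was 1.15, just above its highest move of 1.12. Between H3K9me2 and H3K27me1 the share went down from 15.3% with no move to 3.30% at 2 kb and 1.19% at 4 kb, below the lowest local move of 1.42%, and was 2.20% at 6 kb. H3K9ac peaks were overlapped by H3K27me3 slightly more often after a move of 2 kb (20.2%) than in place (18.6%), which means that H3K27me3 was more often found next to H3K9ac peaks than on them.

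**Figure D3:**
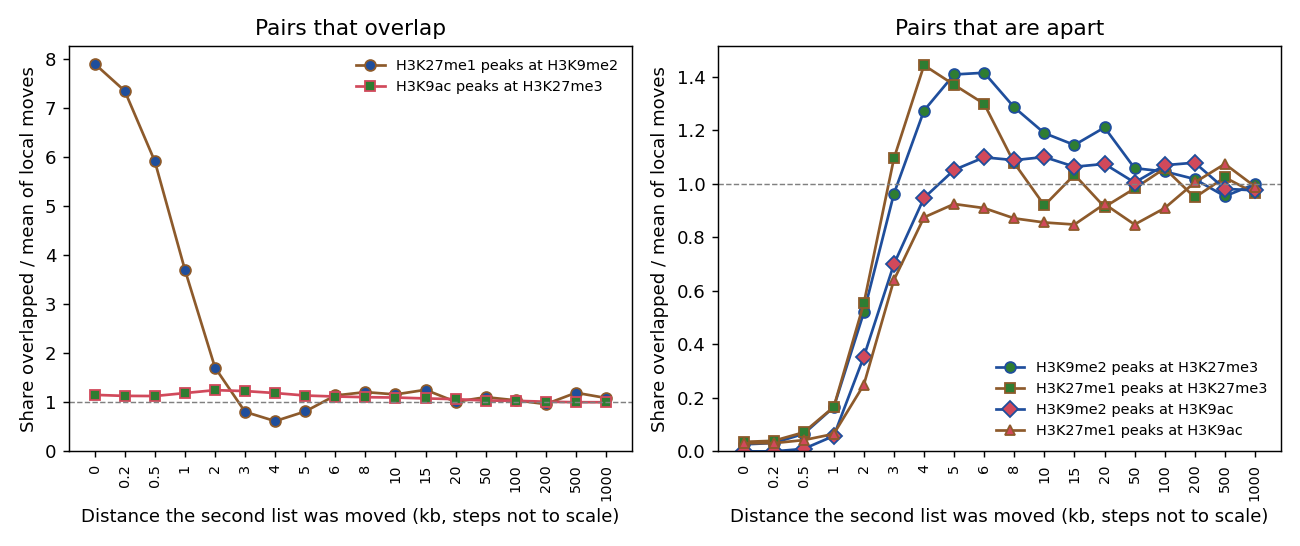
Share of peaks overlapped when the second list was moved by 0 to 1000 kb (mean of both directions), divided by the mean over the 38 local moves; the dashed line is 1 and the steps on the horizontal axis are not to scale. On the left H3K27me1 at H3K9me2 starts at 7.91 and H3K9ac at H3K27me3 at 1.15; on the right the 4 separated pairs start below 0.04, and those with H3K27me3 pass 1.3 at 5 kb.

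Nearest-peak distances gave this grouping within 1 kb. Their medians gave it from H3K9ac, H3K27me3 and H3K27me1, but not from H3K9me2. Divided by the median after local moves, H3K9ac had 0.485 to H3K27me3, 1.05 to H3K9me2 and 1.07 to H3K27me1. H3K27me3 had 0.600 to H3K9ac, 0.925 to H3K9me2 and 1.04 to H3K27me1. H3K27me1 had 0.678 to H3K9me2, 0.873 to H3K27me3 and 0.909 to H3K9ac. An H3K9ac peak had a median of 2.29 kb to the nearest H3K27me3 peak, against 4.72 kb after local moves, and an H3K27me3 peak had 2.67 kb to the nearest H3K9ac peak, against 4.46 kb. The nearest H3K9me2 peak was 16.8 kb from an H3K27me1 peak (24.8 kb after moves), and 19.9% of H3K27me1 peaks had one within 1 kb (4.69% after moves). From H3K9me2, the median distance was 35.97 kb to H3K27me1 (44.1 kb after moves), 29.98 kb to H3K27me3 (37.3 kb) and 36.7 kb to H3K9ac (46.5 kb), so all 3 were nearer than after moves, by ratios from 0.791 to 0.816. The closest H3K9ac peak lay 230 bp away. Within 1 kb of an H3K9ac peak lay 49 H3K9me2 peaks (0.502%), against 7.66% after moves. Within 10 kb the shares were 25.1% and 24.4%, so the gap between these marks was a matter of short distances. H3K27me3 lay within 1 kb of 2.27% of H3K9me2 peaks (10.8% after moves) and within 10 kb of 30.8% (28.7% after moves).

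The closest peak of another mark was H3K27me3 for 92.9% of H3K9ac peaks, and H3K9ac for 80.9% of H3K27me3 peaks. In the 1-Mb windows around H3K9ac peaks, 37.2% of all peaks, H3K9ac included, were H3K27me3, 5.15% H3K9me2 and 2.97% H3K27me1. Around H3K27me3 peaks, 44.4% of all peaks, H3K27me3 included, were H3K9ac, 8.56% H3K9me2 and 5.08% H3K27me1. Most peaks of other marks in these windows were thus H3K27me3 or H3K9ac, whatever their distance. For H3K27me1 it was H3K9me2 in 62.6%, and for H3K9me2 it was H3K27me1 in 45.9% of cases, although H3K27me1 was the shortest list. H3K9me2 had H3K27me3 as its closest other mark in 33.4% and H3K9ac in 20.7%. In the 1-Mb windows around H3K9me2 peaks, 31.3% of all peaks, H3K9me2 included, were H3K27me3, 22.5% H3K9ac and 17.3% H3K27me1. H3K27me3 came before H3K9ac in both orders. H3K27me1, the least frequent other mark in these windows, was the one most often closest.

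Along the chromosome, peaks followed peaks of their own mark more often than the composition of their 1-Mb window gave. The next peak after H3K9ac was H3K9ac in 63.8% of cases (1.17 times the share of H3K9ac in the window), and after H3K27me3 it was H3K27me3 in 53.2% (1.27 times). H3K9me2 was followed by H3K9me2 in 36.9% (1.28 times) and by H3K27me1 in 25.7% (1.48 times), and H3K27me1 by H3K9me2 in 41.6% (1.49 times). H3K9ac and H3K27me3 followed each other less often than the window gave (0.84 times in both orders), although both were common in the same windows. With the own mark above its window share, the other marks together had to be below theirs. This pair was the least reduced. After H3K9ac, H3K9me2 stood at 0.640 and H3K27me1 at 0.535 times the window share, and after H3K27me3 at 0.732 and 0.651 times. H3K27me1 was followed by H3K9ac at 0.527 times.

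Long runs of a single mark were found in all lists. The longest run of H3K27me3 was 58 peaks without any other mark between them, on chromosome 3 from 49986053 to 50315954 (330 kb). The longest run of H3K9ac was 39 peaks over 129 kb on chromosome 5 from 65950775 to 66079351. H3K9me2 had 17 in a row over 525 kb on chromosome 9 from 33541658 to 34066644, and H3K27me1 had 12 over 423 kb on chromosome 1 from 65354668 to 65777611. Runs of 1 peak made up 45.2% of H3K9ac, 53.7% of H3K27me3, 65.9% of H3K9me2 and 74.5% of H3K27me1 runs.

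Over 1-Mb windows, the marks that were kept apart at the scale of a peak were again in opposite places, and H3K9ac and H3K27me3 were in the same ones. Across the 796 complete windows, which share chromosomes and libraries and are not independent, Spearman's rho of covered length was 0.88 for H3K27me3 and H3K9ac and 0.57 for H3K9me2 and H3K27me1. It was −0.32 for H3K27me3 and H3K9me2, −0.47 for H3K27me3 and H3K27me1, −0.37 for H3K9me2 and H3K9ac, and −0.51 for H3K27me1 and H3K9ac. All 6 signs were the same on 12 of 12 chromosomes. With 10-kb windows rho for H3K27me3 and H3K9ac was 0.41, and with 5-Mb windows 0.91.

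Distance from the chromosome end was common to all lists, and these values were also taken without it. After the mean rank of each 5% class of distance was subtracted, rho was 0.80 for H3K27me3 and H3K9ac and 0.43 for H3K9me2 and H3K27me1. It was −0.31 for H3K27me1 and H3K9ac and −0.28 for H3K27me1 and H3K27me3, but −0.10 for H3K9me2 and H3K9ac and −0.07 for H3K9me2 and H3K27me3. Among 1-Mb windows at the same distance from the end, H3K27me1 was therefore the constitutive mark more clearly opposed to the active and facultative marks. This did not hold in 10-kb windows. There, rho with H3K9ac after the same step was −0.08 for H3K9me2 and −0.07 for H3K27me1, and rho with H3K27me3 was −0.04 and −0.03. The values of H3K9me2 depended on the scale. In 100-kb windows the rho with H3K27me3 after this step was 0.02, and in 5-Mb windows, before it, chromosome 5 alone had a positive rho of H3K9me2 with H3K27me3 (0.02) and with H3K9ac (0.03). At a q-value of 0.01 or lower, rho of H3K9me2 was −0.17 with H3K9ac and −0.13 with H3K27me3 before this step.

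**Figure D4:**
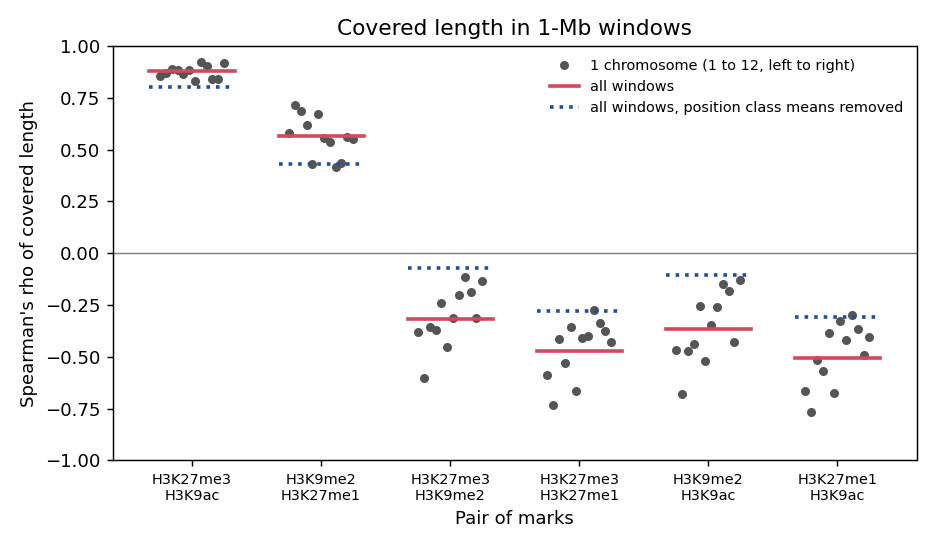
Spearman's rho between the covered lengths of 2 marks in 1-Mb windows for the 6 pairs: grey points are single chromosomes in numerical order, the red line is all 796 windows and the dotted blue line all windows after removing the mean rank of each distance class. The pairs H3K27me3 with H3K9ac and H3K9me2 with H3K27me1 lie above 0 on every chromosome, and the other 4 below.

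The windows richest in one mark differed in what else they held. The window with most H3K9ac was on chromosome 4 from 63000001 to 64000000, with 262 kb of H3K9ac, 131 kb of H3K27me3 and no constitutive peak. The window with most H3K27me3, on chromosome 2 from 41000001 to 42000000, had 187 kb of it, 181 kb of H3K9ac, no H3K9me2 and 0.339 kb of H3K27me1. H3K9me2 was highest on chromosome 5 from 18000001 to 19000000, with 40.8 kb beside 25.01 kb of H3K27me3, 1.01 kb of H3K27me1 and 0.565 kb of H3K9ac. H3K27me1 was highest on chromosome 9 from 32000001 to 33000000, with 9.73 kb beside 28.3 kb of H3K9me2, 15.7 kb of H3K27me3 and 4.16 kb of H3K9ac. The least marked window, on chromosome 8 from 43000001 to 44000000, had 4.43 kb of H3K9me2, 0.564 kb of H3K27me1 and neither of the other marks. Of the 80 windows with most H3K27me3 and the 80 with most H3K9ac, 30 were the same, against 16 of 80 for H3K9me2 and H3K27me1.

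H3K9ac was the most concentrated mark. The tenth of windows with most of it held 43.0% of its covered length, against 27.7% for H3K27me3, 22.7% for H3K27me1 and 19.98% for H3K9me2. There were 241 stretches of at least 500 kb without an H3K9ac peak, which summed to 219 Mb. The longest were on chromosome 11 from 18087384 to 21132799 (3045 kb), on chromosome 8 from 9613372 to 12633902 (3021 kb) and on chromosome 11 from 48086627 to 50885387 (2799 kb). The first held 54 H3K9me2, 62 H3K27me1 and 1 H3K27me3 peak, the second 43 H3K9me2 and 31 H3K27me1 peaks, and the last 39 and 16, and the second and last had no H3K27me3 peak.

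The longest single peaks followed the same lines. The longest H3K9ac peak, of 9269 bp with a fold enrichment of 11.2, stretched over positions 3772009 to 3781277 of chromosome 5, and the next were 2 peaks of chromosome 3, of 8296 bp at 63014151 to 63022446 (fold enrichment 17.7) and of 8002 bp at 64224016 to 64232017 (16.2). H3K27me3 peaks covered 0, 356 and 1933 bp of them. The longest H3K27me3 peak, 6435 bp on chromosome 2 at 42099072 to 42105506, had 595 bp of H3K9ac. The next, 6063 bp on chromosome 6 at 6355568 to 6361630 and 5750 bp on chromosome 9 at 650146 to 655895, held no other mark. H3K27me1 covered 1283 bp of the longest H3K9me2 peak (3748 bp, chromosome 1 at 92839594 to 92843341), 602 bp of the next (3596 bp, chromosome 6 at 7133915 to 7137510) and 459 bp of the third (3576 bp, chromosome 9 at 54974732 to 54978307). The longest of these is the last peak of chromosome 1 and defined its end here.

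Over whole chromosomes, the densities of H3K9ac and H3K27me3 varied most among the 12. H3K9ac ran from 35.1 peaks per Mb on chromosome 12 (exact Poisson interval 33.8 to 36.5) to 89.2 on chromosome 2 (86.8 to 91.8), a ratio of 2.54. H3K27me3 ran from 35.1 (33.7 to 36.5) on chromosome 12 to 60.4 (58.3 to 62.5) on chromosome 2, a ratio of 1.72. H3K9me2 was lowest on chromosome 2 (10.1, 9.27 to 10.97) and highest on chromosome 5 (13.5, 12.6 to 14.4), a ratio of 1.34, and H3K27me1 lowest on chromosome 4 (6.63, 6.02 to 7.28) and highest on chromosome 9 (8.23, 7.57 to 8.94), a ratio of 1.24. The highest and lowest chromosomes were picked by these values. In the outer 20% at each end alone the ratios were closer together, with 1.72 for H3K27me1, 1.69 for H3K9ac, 1.64 for H3K9me2 and 1.59 for H3K27me3. No intervals were taken for these, and the constitutive lists had few peaks there, so no order is read from them.

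Chromosomes dense in H3K9ac were dense in H3K27me3, and sparse in constitutive marks. Over the 12 chromosomes Spearman's rho of peaks per Mb was 0.94 for H3K9ac and H3K27me3, −0.85 for H3K9ac and H3K9me2, −0.74 for H3K9ac and H3K27me1 and 0.67 for H3K9me2 and H3K27me1, as a description of chromosomes that share libraries. With chromosome length, rho of peaks per Mb was −0.51 for H3K9ac, −0.56 for H3K27me3, 0.36 for H3K9me2 and 0.68 for H3K27me1. The values between marks were not taken without length. H3K9ac varied more than H3K27me3, so the number of H3K9ac peaks per H3K27me3 peak went from 1.00 on chromosome 12 to 1.48 on chromosome 2. H3K9me2 per H3K27me1 went from 1.31 on chromosome 1 to 1.79 on chromosome 8.

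**Figure D5:**
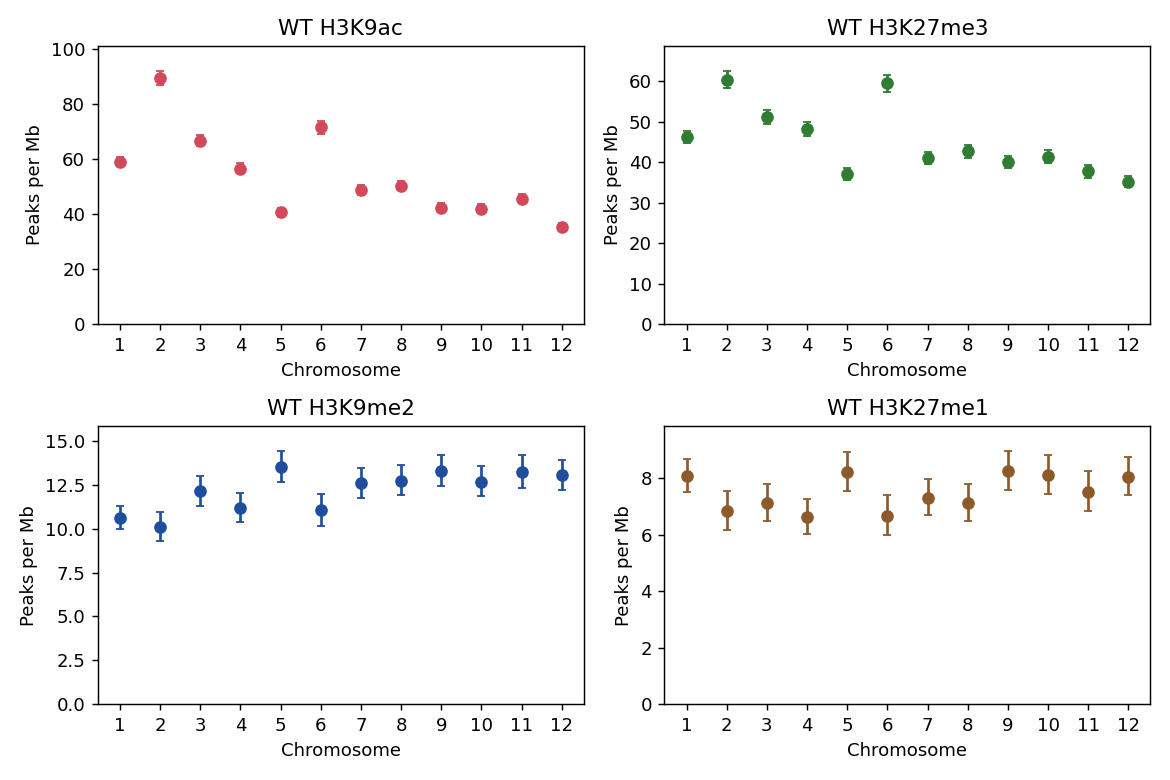
Peaks per Mb on chromosomes 1 to 12 for each WT mark, with exact Poisson 95% intervals (counting error only); all vertical axes start at 0 and differ in scale. H3K9ac ranges from 35.1 (chromosome 12) to 89.2 (chromosome 2), and H3K9me2 from 10.1 (chromosome 2) to 13.5 (chromosome 5).

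Chromosome 2 stood apart in its shape as well. Its first 20% held 69 H3K9ac peaks and its last 20% held 2493, a ratio of 36.1. H3K27me3 had 81 and 1141 peaks there, whereas H3K9me2 had 157 and 17, and H3K27me1 117 and 17. The start of chromosome 2 thus held more constitutive than active and facultative peaks. On it, the median distance from the nearer end was 19.1% for H3K9ac and 26.3% for H3K27me3, the highest of all chromosomes, and both lay nearer to the constitutive marks along the axis than on any other chromosome. More H3K9ac peaks in the last than in the first 20% were found on 10 of 12 chromosomes, as for H3K27me3, and fewer H3K9me2 peaks on 11 of 12. For H3K9ac and H3K9me2 this was, after chromosome 2, most marked on chromosomes 1 and 6, with 793 against 3624 and 562 against 2051 H3K9ac peaks. H3K27me1 had 185 against 19 and 91 against 7 peaks on these, more uneven than on chromosome 2. For H3K27me3 the last 20% held 1.94 times as many peaks as the first on chromosome 8 and 1.83 times on chromosome 4, against 1.73 times on chromosome 1. Chromosomes 5 and 11 had more active and facultative peaks at the start, with 1417 against 968 and 1256 against 1023 for H3K9ac, and 1118 against 791 and 906 against 673 for H3K27me3. Without chromosome 2, an alternative added after the values were seen, the ratio between the highest and the lowest chromosome for H3K9ac was 2.03.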

How the data were processed

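The 4 deposited WT leaf ChIP-seq peak lists, 1 per mark, were used, and the 5 *ddm1* lists and the series-wide text table were left out. Per the methods and labels, the authors trimmed reads with Trimmomatic 0.38, aligned them with Bowtie2 (2.3.5 in the submitters' processing notes, another version in the methods) to M82 V1.0 with 1 mismatch, and ran the MACS peak caller with a q-value limit of 0.05. The control, and whether biological replicates were pooled, were not given in the sources used here. Each deposited peak had a fold enrichment (a ratio), −log10 p-value and −log10 q-value, and a score derived from it. The deposited q-values are means over the region in broad lists, where 957 H3K27me3 and 445 H3K9me2 peaks were above 0.05. The deposited score and summit offset were not analysed.

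Peaks on chromosomes 1 to 12 were kept. Chromosome ends were the last peak end over the WT lists. Overlap meant at least 1 bp. For the locally moved share the target list was moved by 100 kb to 1 Mb in steps of 50 kb, in both directions (38 moves), and for rotation in steps of 5% of the chromosome (19 rotations). These are fixed moves and give no p-value. Distances ran between peak edges, and 0 for overlap. Windows were complete 1-Mb windows. Named regions were, per mark, the window with most covered length and the 3 longest peaks, per overlapping pair the longest shared stretches, the chromosomes with most and fewest peaks per Mb, the least marked window and the 3 longest stretches without H3K9ac. Intervals are 95% Wilson for shares and exact Poisson for densities. The members, lists and measures were chosen with earlier results of these data known. Interval functions were checked on simulated data. Python 3.11.15, numpy 2.4.6, pandas 2.3.3, scipy 1.17.1 and matplotlib 3.10.9 were used. The alternatives were a q-value of 0.01 or lower, lists of equal size, at least 50% of the peak shared, a minimum of 200 bp, rotation, other windows and counts, the outer 20% of chromosomes and, added later, leaving out chromosome 2.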

Additional observations from a re-analysis of the deposited data

Results flagged for a closer look

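Peaks outside the 12 chromosomes entered no comparison. The WT H3K27me3 list held 45 peaks on the chloroplast genome (50.9 kb, median fold enrichment 1.67), 49 on the mitochondrial genome (19.6 kb, 2.06) and 30 on unplaced contigs (14.6 kb, 2.97), and the WT H3K9ac list held 5 on unplaced contigs. They are given because they lie in sequence that the comparisons did not use. The H3K9me2 and H3K27me1 lists had 0 peaks in these places. Organelle genomes carry no histones, and the cause of the H3K27me3 peaks there was not tested.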

How the results depend on the processing

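Of 120 values under alternative settings, 87 stayed within the spread used, 32 moved beyond it and 1 reversed. The spread was the counting interval or 1 SD over chromosomes. For the shares at 5 kb it was a band as wide as the range over the local moves. With lists of equal size (6044 peaks each), the ratio of H3K27me3 peaks at H3K9ac to locally moved lists turned from 1.14 to 0.312; the cause was not tested. The other moved values follow. The share of H3K27me3 peaks at H3K9ac was 20.4% at a q-value of 0.01 or lower, 1.72% with equal lists, 7.80% with 50% of the peak shared and 17.6% with peaks of at least 200 bp, and its ratio was 2.29 under rotation. The share of H3K27me1 peaks at H3K9me2 was 9.30%, 12.3%, 14.2% and 18.8% under the same settings, and its ratio 13.5 at the stricter q-value, 10.0 with equal lists and 9.97 under rotation. The share of H3K9me2 peaks at H3K27me3 was 0.0662% with equal lists and 0.0205% with 50% shared, and with equal lists 0.0331% of H3K27me1 peaks were at H3K27me3 and 0.0165% at H3K9ac. In 100-kb windows rho was 0.74 (H3K27me3 and H3K9ac), 0.30 (H3K9me2 and H3K27me1), −0.13 (H3K27me3 and H3K9me2), −0.20 (H3K27me3 and H3K27me1) and −0.27 (H3K27me1 and H3K9ac). Pearson's r was 0.80 for H3K27me3 and H3K9ac and −0.63 for H3K9me2 and H3K9ac. At the stricter q-value rho was 0.43 for H3K9me2 and H3K27me1, −0.13 for H3K27me3 and H3K9me2 and −0.17 for H3K9me2 and H3K9ac. In the outer 20% at each end the ratio of highest to lowest chromosome was 1.69 (H3K9ac), 1.59 (H3K27me3), 1.64 (H3K9me2) and 1.72 (H3K27me1), and 2.03 for H3K9ac without chromosome 2. At the stricter q-value, added after the data were seen, the share of H3K9me2 peaks at H3K27me3 moved by 5 kb was 1.54 times the locally moved one. The median distance of each mark from the chromosome end stayed within the spread under every setting tried for it. With 1 list per mark, the spread between plants is unknown, and the H3K9me2 list, of which 34.8% passed a q-value of 0.01, limits what its pairs can show. No paired analysis was possible because each WT mark had 1 deposited list.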
